A study of Mus musculus with 4 samples.

Results

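Solute carriers are membrane proteins that move ions, nutrients, metals, neurotransmitters and other small molecules across the plasma membrane and the membranes of organelles, and their gene symbols place them in numbered families. The genes described here were the rows of the count table with a symbol of Slc followed by a number and a count in at least 3 cells, without 4 transporters left out by name (Slc1a2, Slc1a3, Slc38a3 and Slc7a10). Of the 15305 genes in the table, 216 carried such a symbol. 74 of these had counts in fewer than 3 cells, 32 of them in no cell, and 138 members in 41 families remained. 11 members were seen in exactly 3 cells, just inside the limit, and 20 rows in 2 cells, just outside it. Slc7a6os, named for the strand opposite Slc7a6, and Slc4a1ap, an adaptor protein gene, match the symbol pattern but encode no transporter.

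All mice carried the alleles Penk-Cre and Ai9: Cre made from the Penk (proenkephalin) gene switches on the red protein tdTomato of the Ai9 allele, so the reporter marks a cell that expresses Penk or whose ancestors did, and not one cell type. After dissociation of striatal and subventricular zone tissue, single reporter-positive cells were sorted into plates for RNA sequencing. This was done in dataset A after removal of cells positive for CD11b (a surface protein of microglia) and in dataset B without that step. The genotype label is WT, no treatment is named, and the age and number of mice are not given in the sources used here. Per dataset the labels name 1 sample of neuroblasts and 1 of quiescent neural stem cells, but the 82 cells of the count table carry only a plate and a well, so none could be assigned to a labelled sample.

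The cells were therefore described in 3 classes set by 2 genes that are not members. Enpp2, which encodes the secreted lysophospholipase autotaxin, took 1% or more of the counts in 32 Enpp2-rich cells, 16 in each dataset. Sox11, a transcription factor gene of newly formed neurons, had 10 or more counts in 41 further cells, 16 in dataset A and 25 in dataset B, called Sox11 cells below. The remaining 9 cells, called the rest, were all in dataset A. 2 cells met both rules and were counted as Enpp2-rich. The highest Enpp2 share outside the Enpp2-rich class was 0.999% and the lowest inside it 1.25%, while Sox11 counts ended at 7 in the rest and began at 20 in the Sox11 class.

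Marker genes showed what these classes held. In Enpp2-rich cells a list of 14 further choroid plexus epithelium genes summed to 15248 to 697853 counts per 1000000 (CPM) per cell in dataset A, with a median of 203151, and to 20486 to 174975 CPM in dataset B, with a median of 77761. Its medians in Sox11 cells were 20.2 and 0 CPM. A list of 16 further neuroblast genes had medians of 14182 and 16680.4 CPM in the Sox11 cells of A and B, and of 0.384 and 0 CPM in the Enpp2-rich cells. In dataset B, 13 of the 16 genes, among them Dcx and Dlx2, were at 0 in Enpp2-rich cells and 0 of them in Sox11 cells. Dlx2 was at 0 in both classes of dataset A. Microglia genes summed to a median of 4.35 CPM in Enpp2-rich and 6.99 CPM in Sox11 cells of dataset B, and of 0 CPM in each class of dataset A. Lists of astroglia, ependyma and striatal projection neuron genes had medians of 483, 316 and 682 CPM in Enpp2-rich cells of dataset B. Each was 0 CPM in the Sox11 cells of that dataset. In dataset A these medians were 9.06, 0 and 60.4 CPM in Enpp2-rich against 7.83, 0 and 1.77 CPM in Sox11 cells. In 4 cells of dataset A another list led: 1 Enpp2-rich and 1 Sox11 cell had more astroglial than class marker counts, 1 Sox11 cell was led by microglia genes, and 1 Sox11 cell carried choroid plexus genes at 791264 CPM. Of the 9 rest cells, 6 were led by the astroglia and quiescent stem cell list. Cell totals ran from 530630 to 7765650 counts. All cells of dataset A came from 1 plate and those of dataset B from 4, with 10 of the 16 Enpp2-rich cells of dataset B on the plate named PL4. That plate held 4 Sox11 cells, while plates P1 and P2 held 12 and 6 Sox11 cells beside 2 and 0 Enpp2-rich cells. Class and plate were thus partly confounded in dataset B.

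Choroid plexus epithelium is a sheet of secretory cells that makes cerebrospinal fluid and is known for dense sets of ion, bicarbonate, nutrient and metal transporters on its blood and fluid faces. Astroglia are known for the uptake of glutamate and of the inhibitory transmitter GABA. Mitochondrial carriers exchange metabolites across the inner mitochondrial membrane in most cells.

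The median share of counts in solute carrier genes was larger in Enpp2-rich than in Sox11 cells. Members took a median of 1.45% of the counts of an Enpp2-rich cell in dataset A and 1.45% in dataset B, against 0.728% and 0.795% of those of a Sox11 cell and 1.33% of those of a rest cell. The ranges over cells overlapped, from 0.343% to 2.64% and 0.853% to 2.10% in the Enpp2-rich cells and from 0.00108% to 1.18% and 0.0839% to 1.94% in the Sox11 cells. With every cell thinned to 500000 counts, a median of 20.5 members had a count in Enpp2-rich cells of dataset A and 13 in those of dataset B, against 11 and 13 in Sox11 cells and 16 in the rest. The Enpp2-rich cells of dataset A thus held more members per cell, while those of dataset B did not, although the median numbers of all genes after the same thinning, 969.5 and 1237, were below the 1486 and 1386 of the Sox11 cells. Most members were seen in few cells: the median member reached 10 counts in 6 of the 82 cells, 7 members reached it in none, and 9 reached it in 20 or more. Slc25a4 was the most widely seen, with 10 counts or more in 48 cells, followed by Slc25a5 in 43, Slc25a3 in 41, Slc39a1 in 39, Slc25a36 in 32 and Slc39a12 in 30.

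To set the classes side by side, the counts of all cells of one class and dataset were pooled, and a member was called higher in a class when its CPM + 1 was at least 4-fold that of the other class in both datasets. By this rule of size, 21 members (15.2%) were higher in Enpp2-rich cells, against 5.52% of the 10119 genes of the table with counts in 3 or more cells. Another 16 (11.6%) were higher in Sox11 cells, against 14.0% of all genes, a share near the background. The remaining 101 were called in neither direction, and the median difference over all members was 0.09 (log2) in dataset A, 0.00 in B, beside -0.06 and -0.10 over all genes. Scaled to the counts of members alone, the split of 21 to 16 became 18 to 26. Without plate PL4 it was 13 to 17 (9.42% and 12.3%, against 4.72% and 15.0% of all genes). With each gene's top cell of each pool left out it was 18 to 9 (13.0% and 6.52%, against 5.03% and 12.4%). Without the 4 cells led by another marker list it was 22 to 20 (15.9% and 14.5%, against 5.90% and 14.5%). In 6 of the 21 and 8 of the 16, 1 cell gave 90% or more of the counts of a pool of the higher class.

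The rule of size is not a test. A test on the 4 pools, with 2 per class, used edgeR's quasi-likelihood method with Benjamini-Hochberg adjustment and called 0 of 7272 genes (0%) and 0 of 103 members tested, with 0.426 as the lowest adjusted p. Before adjustment 20 members (19.4%) and 794 genes (10.9%) had a p under 0.05, and DESeq2 called 24 members and 1213 genes (16.7%) on the same counts. Without the Sox11 pool of dataset A, which holds 3 of the 4 doubtful cells, edgeR called 5 of 128 members and 168 of 8592 genes (1.96%). The spread then came from the Enpp2-rich pools alone, and the lone Sox11 pool was assumed to vary like them. Without the Sox11 pool of dataset B it called 0 of 119 members and 21 of 8094 genes (0.259%). A pool holds the cells of 1 class from 1 dataset and is not an animal, and each sort gave both classes of its dataset. These p-values measure only the spread between these pools, and in the text that follows "higher" means past the rule of size.

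**Figure D1:**
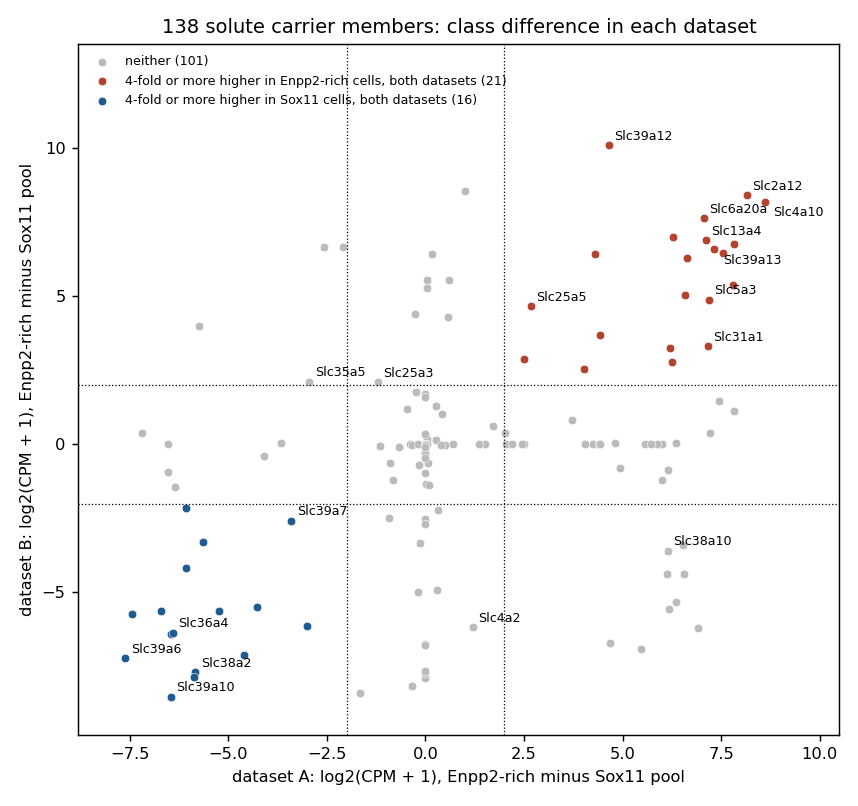
Difference between Enpp2-rich and Sox11 pools in log2(CPM + 1) for each of the 138 members, in dataset A (horizontal axis) and dataset B (vertical axis), with dotted lines at 4-fold. The 21 red points passed the rule of size toward Enpp2-rich cells and the 16 blue points toward Sox11 cells, while many grey points differ in 1 dataset and lie near 0 in the other.

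The plot of both differences spreads the called members along 2 corners. The smaller of the 2 differences was 8.17 for Slc4a10 and 8.16 for Slc2a12 at one end, and -7.22 for Slc39a6 at the other. Grey points on an axis differ in 1 dataset alone, and 17 members (12.3%, against 16.9% of all genes) had no count in any cell of dataset A and 20 (14.5%, against 7.74%) none in dataset B.

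The calls were counted by transport role, beside the 5.52% of all genes called toward Enpp2-rich and the 14.0% toward Sox11 cells. Of 10 sugar and monocarboxylate transporters, 5 were higher in Enpp2-rich cells and 0 in Sox11 cells, and the median difference of the 10 was 5.30 in dataset A, 4.63 in B. Roles were given by family number. Of 17 genes of the amino acid group, 0 were higher in Enpp2-rich cells and 3 in Sox11 cells (17.6%), among them Slc7a6os, which encodes no transporter. Slc6a20a, an imino acid importer higher in Enpp2-rich cells, was by its family counted with the neurotransmitter transporters. Ion and acid-base transporters (21 members) and metal transporters (21 members) were each called in both directions, 5 toward Enpp2-rich (23.8%) and 4 toward Sox11 cells (19.0%). Mitochondrial carriers, the largest group, gave 1 and 2 calls among 22 (4.55% and 9.09%), and the nucleotide sugar and endomembrane transporters 2 and 1 among 19. Vitamin, lipid and other organic solute transporters gave 2 calls toward Enpp2-rich cells among 18 (11.1%), and neurotransmitter transporters 1 and 2 among 10. By family, 3 of 5 SLC16 members were higher in Enpp2-rich cells, 0 of 13 SLC35 members were called either way, and 7 families held members called in opposite directions.

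**Figure D2:**
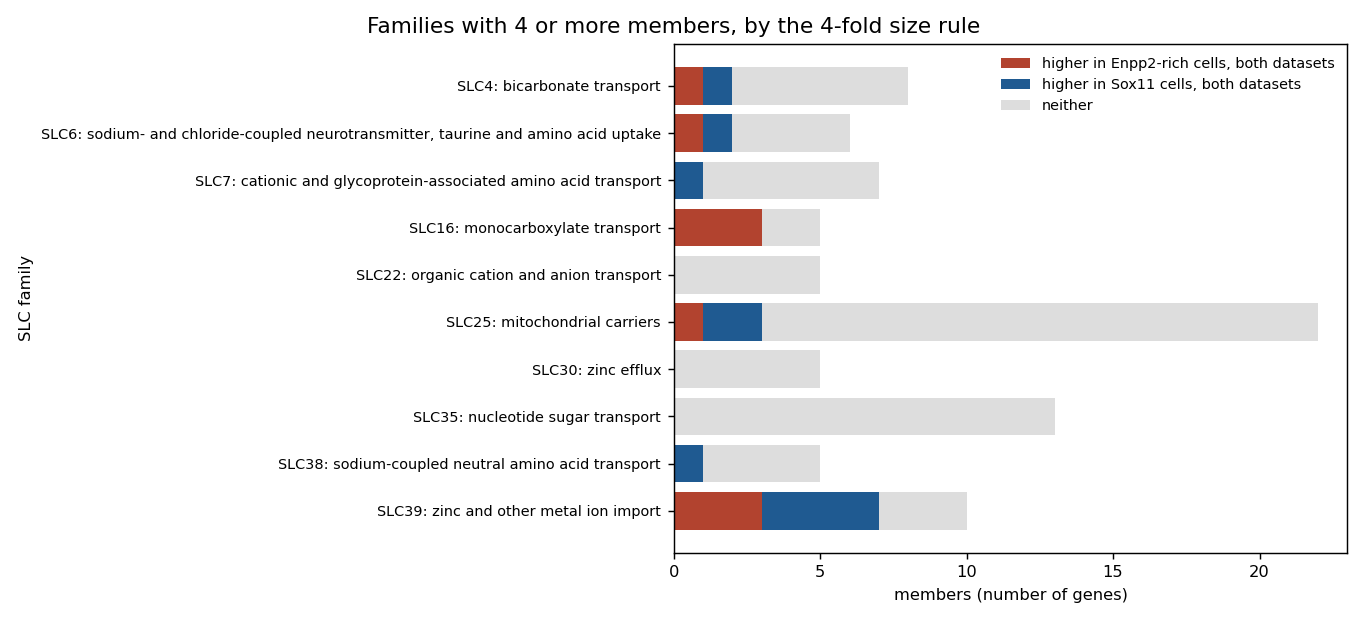
Number of members in each of the 10 SLC families with 4 or more members, split into those 4-fold or more higher in Enpp2-rich cells in both datasets (red), in Sox11 cells in both datasets (blue) and in neither (grey). SLC39 was split 3 to 4 and SLC16 3 to 0, while SLC25, the largest family with 22 members, and SLC35 with 13 were mostly or wholly grey.

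Among ion and acid-base transporters the leading gene was Slc4a10, a sodium-coupled bicarbonate transporter of the choroid plexus and of neurons. Its level per Enpp2-rich cell ran from 0 to 5034 CPM with a median of 434 in dataset A, and from 0 to 1430.2 CPM with a median of 0 in dataset B. The highest Sox11 cell had 16.8 CPM in dataset A, all 25 Sox11 cells of dataset B were at 0, and so were all 9 rest cells. It reached 10 counts in 12 of 16 Enpp2-rich cells of dataset A (75.0%, exact 95% interval 47.6 to 92.7%) and in 5 of 16 of dataset B (31.2%, 11.0 to 58.7%), so the single cells of the classes overlapped at 0 although the pools, at 904 and 287 against 1.33 and 0 CPM, did not. A sister gene with the same kind of function, Slc4a7, went the other way, at 18.3 and 45.1 CPM in the Sox11 pools against 0 and 0.029 CPM in the Enpp2-rich pools, but on 2 cells with 10 counts in each dataset. Slc4a5, a further bicarbonate cotransporter of choroid plexus, stood at 162 CPM in Enpp2-rich cells of dataset A (10 counts in 7 of 16 cells) and had 0 counts in dataset B. Slc4a2, a chloride/bicarbonate exchanger, had 265 CPM in Enpp2-rich cells of dataset A and 0 in those of dataset B, and 114 and 71.2 CPM in Sox11 cells.

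Phosphate transporters showed the same kind of split, and cation-chloride cotransporters gave calls too. Slc12a4, a potassium-chloride cotransporter, was higher in Enpp2-rich cells, at 91.4 and 5.80 CPM against 0.204 and 0 CPM, in dataset B from 1 cell. Slc12a2, the sodium-potassium-chloride importer of choroid plexus, stood at 334 and 341 CPM in Enpp2-rich cells but missed the rule, and 1 Sox11 cell of dataset B carried 97.9% of a pool value of 155 CPM. Of the sodium-phosphate importers, Slc20a2 was higher in Enpp2-rich cells (105 and 75.9 against 0.068 and 0 CPM) and Slc20a1 in Sox11 cells (87.5 and 48.5 against 1.34 and 0 CPM). Each of these phosphate carrier levels rested on at most 3 cells with 10 counts in a pool.

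Slc13a4, which takes up sulfate with sodium, ran from 0 to 1638 CPM per Enpp2-rich cell in dataset A (median 3.26) and from 0 to 685 CPM in dataset B (median 0). The highest Sox11 cells had 23.8 and 0.468 CPM. The pools stood at 393 and 119 CPM against 1.84 and 0.0195 CPM, differences of 7.12 and 6.88. Slc24a5, a potassium-dependent sodium/calcium exchanger, was also higher in Enpp2-rich cells, by 2.49 and 2.86, with 10 counts in 2 and 6 of 16 cells.

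Between Enpp2-rich and Sox11 cells, sugar and monocarboxylate transporters formed the group most clearly on the Enpp2-rich side. Their summed levels were 1301 and 1209 CPM against 66.9 and 22.3 CPM in the Sox11 pools. The rest cells summed to 1248 CPM, with 78.6% of it from Slc2a1. Slc2a12, a glucose transporter, ran from 0 to 2030.2 CPM per Enpp2-rich cell in dataset A, with a median of 17.5, and from 0 to 3357 CPM in dataset B, with a median of 0. Its counts in Sox11 cells were 7 in all of dataset A and 0 in dataset B. Counted by cells, 8 of 16 and 4 of 16 Enpp2-rich cells held 10 counts of Slc2a12, and no Sox11 or rest cell did. Without plate PL4 the smaller of its 2 differences went from 8.16 to 3.96. Slc5a3, which takes up the osmolyte myo-inositol, was at 150.2 and 369 CPM in the Enpp2-rich pools against 0.034 and 11.6 CPM, the latter with 99.7% of its counts in 1 cell. It held 10 counts in 4 Enpp2-rich cells of each dataset, and its levels per cell ran from 0 to 1507 CPM and from 0 to 2078 CPM. Its smaller difference went from 4.88 to 2.57 without plate PL4.

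In the monocarboxylate family, Slc16a6 and Slc16a4 were among the 3 members higher in Enpp2-rich cells. Slc16a6 stood at 92.7 and 125 CPM against 0.204 and 0 CPM, on 2 Enpp2-rich cells per dataset. Slc16a4 stood at 74.7 and 104 CPM against 0.034 and 9.96 CPM. Both rested on 2 or 3 Enpp2-rich cells with 10 counts in each dataset. Slc16a1, the lactate and pyruvate transporter of endothelium and glia, had at most 21.5 CPM in a pool.

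Metal transporters were called in both directions within 1 family. Slc39 genes encode zinc and other metal ion importers: of 10 members, Slc39a12, Slc39a13 and Slc39a4 were higher in Enpp2-rich cells and Slc39a6, Slc39a10, Slc39a3 and Slc39a7 in Sox11 cells. Slc39a12, a plasma membrane zinc importer, ran from 0 to 4724 CPM per Enpp2-rich cell in dataset A (median 1279) and from 0 to 3444 CPM in dataset B (median 215). Sox11 cells ended at 632 CPM in dataset A, where 1 cell gave 87.6% of the pool's counts, and were all at 0 in dataset B. Rest cells held it too, from 0 to 4928 CPM with a median of 0.859, so high Slc39a12 was shared by Enpp2-rich cells and 4 of 9 rest cells. Slc39a13, a zinc transporter of internal membranes, ran from 0 to 1746 and from 0 to 614 CPM in Enpp2-rich cells, with 10 counts in 5 and 4 of 16, and had no count in any Sox11 or rest cell. Slc39a4, the intestinal zinc importer, stood at 95.1 and 31.4 CPM against 0 in both Sox11 pools.

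On the Sox11 side, Slc39a6 and Slc39a10 encode a closely related pair of plasma membrane zinc importers. Slc39a6 ran from 0 to 1807 CPM per Sox11 cell in dataset A and from 0 to 2047 CPM in dataset B, with 10 counts in 3 of 16 and 4 of 25 cells, and had no count in any of the 32 Enpp2-rich cells. Slc39a10 ran from 0 to 1775 and from 0 to 1979 CPM, with 10 counts in 3 of 16 (18.8%, 4.05 to 45.6%) and 10 of 25 cells (40.0%, 21.1 to 61.3%). A single Enpp2-rich cell held 15 counts of it. In dataset A 1 Sox11 cell gave 94.4% of the counts, and without the top cell of each pool the smaller difference went from -6.46 to -2.94. Medians were 0 in both Sox11 pools for each gene, so most Sox11 cells, like the Enpp2-rich cells, were at 0, and the contrast rested on the minority with counts. Slc39a7, the zinc releaser of the endoplasmic reticulum, was low in Sox11 cells (9.58 and 4.99 CPM) and at 0 in both Enpp2-rich pools, while 2 of 9 rest cells held it. Its call was lost under 2 alternatives: the smaller difference, -2.58, was -0.58 with a pseudocount of 10 CPM and -1.32 without top cells. Slc39a1 reached 10 counts in 39 cells of all classes and differed by 0.07 and -0.64.

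**Figure D3:**
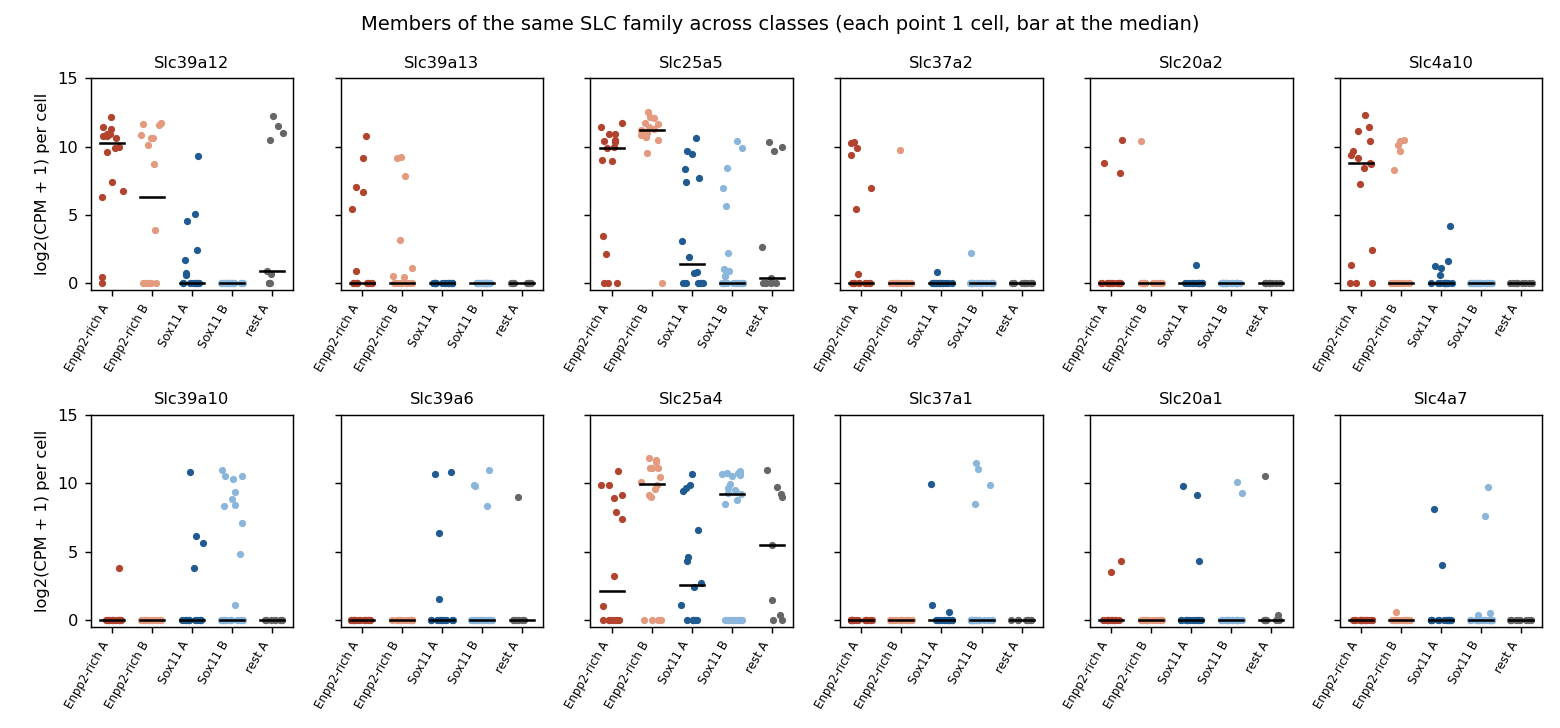
Levels per cell in log2(CPM + 1) for 6 pairs of members of the same SLC family, the upper gene of each pair leaning to Enpp2-rich cells and the lower, except Slc25a4, to Sox11 cells, by class and dataset (each point 1 cell, black bar the median). Slc39a13 has points above 0 in Enpp2-rich cells only and Slc39a6 in Sox11 cells and 1 rest cell, while Slc25a4 is spread over all classes.

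The start regions of 4 Slc39 genes are shown because the family divided by class, 2 from each side, and were chosen after the values were seen. Each runs from 250 bases before to 50 bases after the annotated start, 5′ to 3′ on the gene's strand, from RefSeq for GRCm38.p6. Capitals mark matches on either strand to TAATCC (the core of OTX homeodomain sites), ACAAAG (a SOX core) or CCGCCC (a GC box). They lie at chr2:14388148-14388447 on the plus strand (Slc39a12), chr2:91070266-91070565 on the minus strand (Slc39a13), chr1:46925727-46926026 on the minus strand (Slc39a10, the more upstream of 2 listed starts) and chr17:34031641-34031940 on the minus strand (Slc39a7).
Slc39a12: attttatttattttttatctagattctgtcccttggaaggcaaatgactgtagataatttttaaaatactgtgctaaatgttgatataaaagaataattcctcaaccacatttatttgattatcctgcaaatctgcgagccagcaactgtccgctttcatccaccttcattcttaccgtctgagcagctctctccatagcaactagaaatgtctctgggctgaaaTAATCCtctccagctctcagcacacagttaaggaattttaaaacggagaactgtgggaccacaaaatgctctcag
Slc39a13: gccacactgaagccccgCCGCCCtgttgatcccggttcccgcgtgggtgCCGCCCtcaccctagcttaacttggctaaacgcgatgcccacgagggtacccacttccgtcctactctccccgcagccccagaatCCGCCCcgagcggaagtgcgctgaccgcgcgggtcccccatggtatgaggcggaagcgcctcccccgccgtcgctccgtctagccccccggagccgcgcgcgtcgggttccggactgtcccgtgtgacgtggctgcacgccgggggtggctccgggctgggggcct
Slc39a10: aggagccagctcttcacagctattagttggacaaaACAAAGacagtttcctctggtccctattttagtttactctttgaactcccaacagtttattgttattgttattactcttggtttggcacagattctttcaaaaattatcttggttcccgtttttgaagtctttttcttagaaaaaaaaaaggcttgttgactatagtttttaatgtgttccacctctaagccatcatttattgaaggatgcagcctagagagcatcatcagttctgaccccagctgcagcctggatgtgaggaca
Slc39a7: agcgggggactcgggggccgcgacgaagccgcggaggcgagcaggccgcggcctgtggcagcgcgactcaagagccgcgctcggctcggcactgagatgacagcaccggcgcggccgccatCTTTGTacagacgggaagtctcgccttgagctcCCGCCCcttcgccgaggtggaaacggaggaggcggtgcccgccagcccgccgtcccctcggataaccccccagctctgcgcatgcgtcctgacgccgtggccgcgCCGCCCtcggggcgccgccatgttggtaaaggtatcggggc
The 2 genes of a class differed in G and C content at the starts shown, although both Sox11-side starts held 1 ACAAAG. Slc39a12 (38.0% G or C) held 1 TAATCC and no GC box, while Slc39a13 (71.7%) held 3 CCGCCC. The Slc39a10 start (38.7%) held 1 ACAAAG, and its other listed start was at 72.3% with no match. Slc39a7 (72.7%) held 1 ACAAAG and 2 CCGCCC. Over the 139 start regions matched for 110 of the 138 members, 3.60% held TAATCC, 12.2% ACAAAG and 69.1% CCGCCC, against 7.06%, 18.7% and 35.7% of all 32851 regions of the same length. Of the 19 regions of members higher in Enpp2-rich cells, 1, 2 and 10 held these letters, and of the 15 of members higher in Sox11 cells 0, 3 and 11. These letter matches are a description of sequence and not of binding.

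Slc31a1 and Slc11a2 were the other metal carriers higher in Enpp2-rich cells. Slc31a1, the plasma membrane copper importer, ran from 0 to 4202 CPM per Enpp2-rich cell in dataset A (median 869.7) and from 0 to 4419 CPM in dataset B (median 139). It held 10 counts in 12 and 8 of 16 of these cells. Sox11 cells ended at 43.2 CPM in dataset A, whereas in dataset B 1 cell with 1997 CPM gave 99.9% of the pool's counts, and 1 rest cell had 1963 CPM. The pools, at 1232 and 922 against 7.61 and 91.9 CPM, differed by 7.16 and 3.31, and the smaller was 2.57 without plate PL4. Slc11a2, a proton-coupled iron importer, stood at 114 and 11.8 CPM against 4.32 and 0 CPM, with 99.5% of the dataset B value from 1 cell. The zinc efflux family SLC30 had 0 calls among 5 members, and its highest member, Slc30a6 of the Golgi, stood at 68.5 and 0 CPM in Enpp2-rich against 132 and 4.64 CPM in Sox11 pools.

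The 17 amino acid genes, grouped by family and so without Slc6a20a, leaned to neither class as a group. Their median differences were 0.28 in dataset A and -0.11 in dataset B. Summed levels were 1190.5 and 287 CPM in Enpp2-rich against 627 and 1010.4 CPM in Sox11 pools. Slc38a2, a sodium-coupled importer of small neutral amino acids, ran from 0 to 367 CPM per Sox11 cell in dataset A and from 0 to 2529 CPM in dataset B, with medians of 0 and 10 counts in 3 of 16 and 8 of 25 cells. Across all 32 Enpp2-rich cells it had 1 count. Slc36a4, a transporter of proline and tryptophan, ran from 0 to 1903 and from 0 to 969 CPM in Sox11 cells and reached 21.6 CPM in 1 Enpp2-rich cell. These differences were -5.83 and -7.68 for Slc38a2 and -6.41 and -6.35 for Slc36a4. Slc38a1, a glutamine importer of neurons, was at 353 CPM in the Sox11 pool of dataset B with 10 counts in 10 of 25 cells, against 2 counts in the Enpp2-rich cells of that dataset, but differed by only -1.66 in dataset A. The third call of the group was Slc7a6os, which encodes no transporter and shares its locus with Slc7a6, so unstranded counting could mix the pair.

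Of the other amino acid carriers, a pair with high levels differed in their pattern between datasets. Slc7a4, an orphan relative of the cationic amino acid transporters, was at 274 CPM in Enpp2-rich and 169.8 CPM in Sox11 cells of dataset A, and at 0 in every cell of dataset B. In the Sox11 pool 1 cell gave 97.1% of its counts. Slc3a2, the heavy chain that carries light chains to the membrane, held 10 counts in 25 cells. It differed by 4.82 in dataset A (455 against 15.1 CPM) and by 0.03 in dataset B (156 against 153 CPM).

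Neurotransmitter and related carriers gave 3 calls among 10. Slc6a20a, an importer of proline and other imino acids, ran from 0 to 919 and from 0 to 1258 CPM in Enpp2-rich cells, with 10 counts in 5 and 4 of 16, and had 1 count in all 41 Sox11 cells. Without plate PL4, which held the Enpp2-rich cells of dataset B that carried it, its difference in dataset B was 0.00. Slc6a6, the taurine importer, was higher in Sox11 cells, at 69.9 and 17.1 CPM against 0.0487 and 0 CPM, but 1 cell gave 100.0% of its counts in dataset A and 94.4% in dataset B. So was Slc18a2, the vesicular monoamine transporter, at 7.07 and 70.5 CPM against 0 and 0.029 CPM, on 1 and 3 cells with 10 counts.

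Mitochondrial carriers were seen in every class and held the highest member level in the Enpp2-rich pool of dataset B and in both Sox11 pools. Slc25a5, an ADP/ATP exchanger, ran from 0 to 3387 CPM per Enpp2-rich cell in dataset A (median 961) and from 0 to 6075 CPM in dataset B (median 2362). Sox11 cells ran from 0 to 1555 (median 1.77) and from 0 to 1359 CPM (median 0). The ranges overlapped, but 13 and 15 of 16 Enpp2-rich cells held 10 counts against 7 of 16 and 5 of 25 Sox11 cells, and the pools were 6.43-fold and 25.6-fold apart. By edgeR its log2 fold change was 4.25, with a p of 0.00907 and an adjusted p of 0.426. An SE of 1.06 was derived as that fold change divided by the square root of the test's F statistic. Per kilobase of exon, Slc25a5 stood at 599.9 and 1499.6 CPM in the Enpp2-rich pools, above Slc25a4 at 109 and 487 and Slc39a12 at 162 and 158. When CPM was taken over members alone, the smaller difference of Slc25a5 fell to 1.44, under the 4-fold limit.

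Slc25a4, the sister ADP/ATP exchanger, did not follow this pattern. It stood at 322 and 1439 CPM in Enpp2-rich against 242 and 706 CPM in Sox11 pools and at 494 CPM in the rest, differences of 0.41 and 1.03. Slc25a3, the phosphate carrier, was at 238 and 1671 CPM in Enpp2-rich and 551 and 392 CPM in Sox11 pools, so its direction differed between datasets. Slc25a25, a calcium-regulated ATP-magnesium/phosphate carrier, was higher in Sox11 cells, at 412 and 52.3 CPM against 1.39 and 0 CPM, with 10 counts in 6 of 16 cells of dataset A and in 1 of 25 of dataset B. Slc25a44, a carrier of branched-chain amino acids, was called on the same side with 2 cells in each dataset. Slc25a39, a mitochondrial glutathione carrier, reached 10 counts in 10 of 16 Enpp2-rich cells of dataset B but in 3 of 16 of dataset A, where the difference was 1.01 beside 8.54 in dataset B.

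Carriers of internal membranes and of organic solutes completed the calls. SLC35 genes encode nucleotide sugar carriers of the Golgi and endoplasmic reticulum and related proteins, and none of 13 was called. Their summed levels were 641 and 758 CPM in Enpp2-rich and 454 and 703 CPM in Sox11 pools. Slc37a2, a sugar phosphate exchanger, was higher in Enpp2-rich cells (237 and 47.4 against 0.068 and 0.175 CPM), in dataset B from 1 cell. Slc37a1, of the same family, was higher in Sox11 cells (57.6 and 228 CPM against 0 in both), with 99.8% of its dataset A counts from 1 cell. Slc66a2, of a lysosomal and endosomal transporter family, differed by 4.01 and 2.55 toward Enpp2-rich cells. Slc23a2, the ascorbate importer, stood at 229.6 and 90.1 CPM against 0.238 and 0.039 CPM, in dataset B from 1 cell. Slc27a1, a fatty acid transport protein, stood at 88.4 and 84.5 against 3.57 and 0 CPM, also from 1 cell in dataset B. Slc22a17, a receptor for lipocalin, held 10 counts in 13 of 16 Enpp2-rich cells of dataset A (431 CPM) but in 2 of 16 of dataset B (25.1 CPM), against 105 and 19.1 CPM in Sox11 pools.

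**Figure D4:**
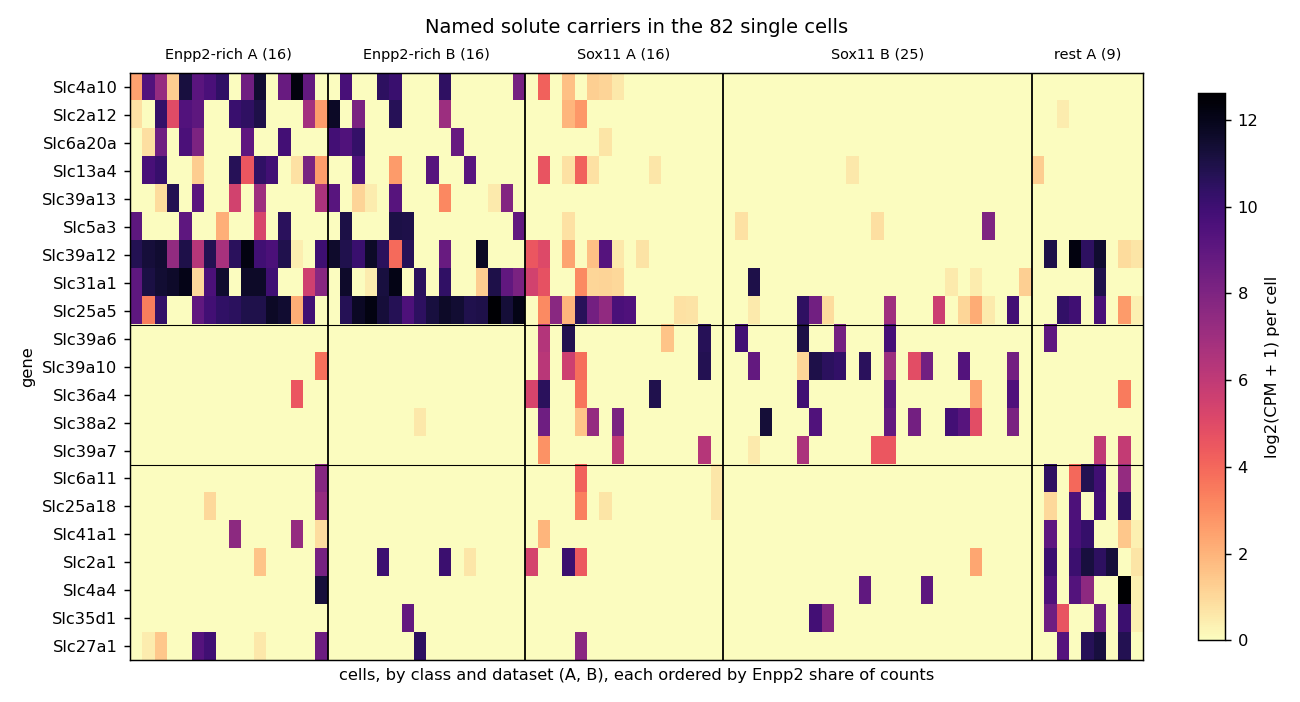
Levels in log2(CPM + 1) of the 9 members named for Enpp2-rich cells, the 5 named for Sox11 cells and 7 named for the rest, in each of the 82 cells, grouped by class and dataset and ordered within a group by Enpp2 share of counts. The upper block is dark in Enpp2-rich columns, with Slc25a5 and Slc39a12 in most of them, while the middle block is dark mainly in scattered Sox11 columns.

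Cell by cell, the members named for Enpp2-rich cells were never all seen together at 10 counts. Both named sets were chosen for being higher in their class, so the contrast between classes below follows from that choice. Of the 9, an Enpp2-rich cell held from 2 to 8 at 10 counts, with a median of 5 in dataset A and 3 in dataset B. Sox11 cells held from 0 to 5 of them in dataset A (median 0.500) and from 0 to 1 in dataset B (median 0), and rest cells from 0 to 3. Of the 5 members named for Sox11 cells, a Sox11 cell held from 0 to 5, with medians of 0 and 1, and an Enpp2-rich cell at most 1. A single cell gave 14.8 to 75.0% of a pool's counts for the Enpp2-rich set (median 35.9%) and 24.1 to 94.4% for the Sox11 set (median 50.4%). In the heat map Slc25a5 has 10 counts in 28 of the 32 Enpp2-rich cells, while most other members of the set are at 0 in many cells of their class. Whether a 0 in a cell is absence of the transcript or missed capture was not tested.

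The members with the highest ratio of rest cells to the other classes, chosen by that ratio, included some known from astroglia, and each reached 10 counts in 3 to 5 of the 9 rest cells. Slc6a11, the glial GABA importer, ran from 0 to 1768 CPM (median 14.7) in the rest and averaged 479 CPM per cell (SD 705), against 6.82 CPM in Enpp2-rich and 0.427 CPM in Sox11 cells. Slc25a18, a mitochondrial glutamate carrier, averaged 338 CPM (SD 534) against 5.03 and 0.257 CPM. Slc41a1, a magnesium exporter, averaged 281 CPM (SD 455) against 10.8 and 0.0706 CPM. All rest cells with 10 counts of these 3 genes were among the 6 led by the astroglia and quiescent stem cell list, and in the Enpp2-rich cells of dataset A the counts of Slc6a11 came from 1 cell, the one led by that list. Slc2a1, the glucose transporter of endothelium and glia, ran from 0 to 2433 CPM (median 1068) and averaged 927 CPM (SD 998) against 76.7 and 28.1 CPM.

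Slc4a4, a sodium-bicarbonate cotransporter of astroglia, averaged 871 CPM (SD 2055) in the rest, with 1 cell at 6298 CPM giving 82.2% of the counts. Slc27a1 averaged 696 CPM (SD 928) and Slc35d1, a nucleotide sugar carrier, 204 CPM (SD 361). The SDs exceeded the means for all 7 genes, and the rest holds cells of 1 dataset and 1 plate, so these levels have no replicate and were not tested.

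**Figure D5:**
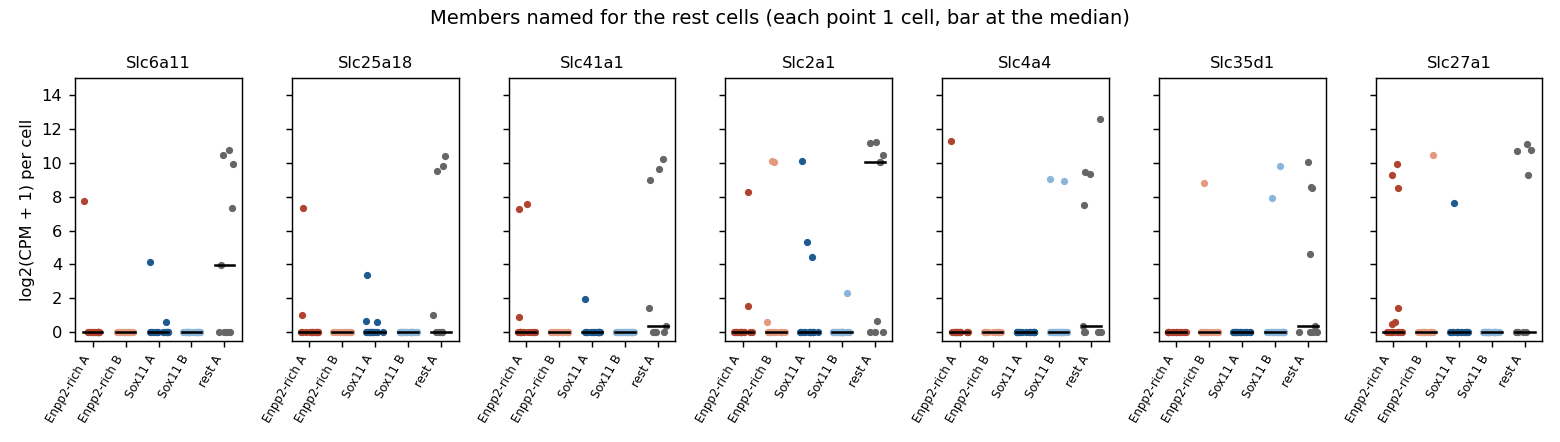
Levels per cell in log2(CPM + 1) of 7 members chosen for the highest ratio of rest cells to the other classes, by class and dataset (each point 1 cell, black bar the median). Rest cells reach 10 or more on this scale for each gene, beside cells at or near 0.

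Lists of transporters known from a cell type were set beside these calls. The lists were drawn up with earlier results of these data known, so their shares are a description and no independent support. Over all members the shares were 15.2% toward Enpp2-rich and 11.6% toward Sox11 cells. Of 34 genes on a choroid plexus list, 30 were in the table and 23 had counts in 3 cells, of which 10 (43.5%, against 5.52% of all genes) were higher in Enpp2-rich cells (among them Slc4a10, Slc12a4, Slc13a4, Slc23a2, Slc2a12, Slc31a1, Slc39a4, Slc39a12 and Slc6a20a) and 2 (8.70%, against 14.0%) in Sox11 cells (Slc4a7 and Slc38a2). The median difference of the 23 was 5.71 in dataset A, 0.38 in B. Of 20 neuronal genes, 13 were in the table and 8 had counts in 3 cells, with 0 higher in Enpp2-rich cells, 1 in Sox11 cells (Slc18a2) and medians of -1.01 and -3.06. That share of 12.5% is near the 14.0% of all genes. Of 20 genes of other cell types, 14 had counts in 3 cells and 2 (14.3%) were higher in Enpp2-rich cells (Slc39a12, also on the choroid plexus list, and Slc37a2).

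Genes that work with these carriers but are no members were called in 1 direction. This list too was drawn up with earlier results of these data known. Of 28 named, 25 were in the table and 21 had counts in 3 cells, of which 9 (42.9%, against 5.52% of all genes) were higher in Enpp2-rich cells and 0 (against 14.0%) in Sox11 cells. Bsg, the chaperone of monocarboxylate transporters, stood at 6339 and 3379 CPM in Enpp2-rich pools against 779.8 and 273 CPM, and Emb, its relative, at 653 and 241 against 8.33 and 0.039 CPM. The carbonic anhydrase Car2, which supplies bicarbonate, stood at 846 and 2585 against 0.340 and 91.4 CPM, and the membrane-bound Car12 differed by 6.80 and 9.22 and Car14 by 3.58 and 8.81. The thyroid hormone and organic anion transporter Slco1c1 stood at 1026 and 928 against 10.4 and 0 CPM. Fxyd1, a regulator of the sodium pump, differed by 2.52 and 9.82, while the pump subunit Atp1b1 differed by 1.91 and 0.75 and was not called. Abcc1, an exporter of conjugates, was among the 9 too, at 71.9 and 55.8 against 0.476 and 0 CPM.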

How the data were processed

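The deposited table held whole-number counts per gene for 82 single cells, used here without change. Per the labels' protocols, cDNA was primed with oligo-dT in plate wells, and no molecular identifiers are described, so reads are not independent molecules. Per the submitters' processing notes, FastQC 0.12.1, STAR 2.7.10b, featureCounts and Subread 2.1.1 and the builds GRCm39 and mm10 were named, with no role or order; annotation, strand setting and filters are not given in the sources used here. A deposited list of runs held no measurements.

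Members, lists and named genes were chosen with earlier results of these data known. Counts were scaled to 1000000 per cell or pool (CPM), and differences taken as log2(CPM + 1) of pooled counts. Named genes were, per direction, up to 12 members past 4-fold in both datasets by their smaller difference, with 10 counts in at least 3 cells of the higher class in each dataset (9 and 5 qualified), the highest member of each family of 4 or more, and the 8 members with the highest rest ratio. edgeR 4.0.16 (filterByExpr, TMM, no block) and DESeq2 1.42.0 were run on 4 pools, and edgeR was checked on simulated data. Because both classes of a dataset were sorted together, per the labels, the dataset pairs the pools, and their deviations correlated at 0.326 over 7272 genes. Intervals on shares of cells are exact Clopper-Pearson intervals at 95%: they cover counting error over the cells drawn, which share a sort and are not replicates. Thinning drew 500000 counts per cell. No cell was removed and no doublet caller was run. Exon lengths (union of exons, GENCODE) matched 138 members. Start regions came from RefSeq for GRCm38.p6, while the build of the counts is unclear, so no coordinates of the counts are given. Some named genes are not reported here. Alternatives are described in the closing section.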

Additional observations from a re-analysis of the deposited data

Results flagged for a closer look

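Members that differed at least 2-fold in opposite directions in the 2 datasets are given where they were among the named genes or held 10 counts in at least 3 cells of the higher pool in each dataset. Values are differences in log2(CPM + 1), Enpp2-rich minus Sox11 pool, and the difference between datasets was not tested. Slc4a2, the chloride/bicarbonate exchanger, differed by 1.21 in dataset A and by -6.17 in dataset B, where its Enpp2-rich cells had no count. Slc25a3, the mitochondrial phosphate carrier, differed by -1.21 and 2.09, with 10 counts in 6 and 13 of 16 Enpp2-rich cells. Slc38a10, a member of the neutral amino acid transporter family, differed by 6.14 and -3.59, with 10 counts in 4 Enpp2-rich cells of dataset A and in 3 Sox11 cells of dataset B. Slc35a5, of the nucleotide sugar carrier family, differed by -2.94 and 2.11, and in each of its pools 1 cell gave 65.3% of the counts or more. Slc2a1, the glucose transporter, differed by -2.56 and 6.64, on 3 Sox11 cells of dataset A and 2 Enpp2-rich cells of dataset B with 10 counts. Of those 3 cells, 2 were led by another marker list, and the third gave 90.2% of the pool's counts. Slc4a4, the sodium-bicarbonate cotransporter, differed by 6.18 and -5.56, on 1 Enpp2-rich cell of dataset A and 2 Sox11 cells of dataset B. That Enpp2-rich cell was the one led by the astroglia and quiescent stem cell list, and no other Enpp2-rich cell had a count. Without the 4 cells led by another list, an alternative chosen after seeing the data, the dataset A difference of Slc4a4 was 0.00, so it no longer pointed opposite ways. It was -6.00 for Slc2a1 and 0.78 for Slc4a2, and -1.51, 6.18 and -3.32 for Slc25a3, Slc38a10 and Slc35a5. Over all members, 13 of 138 (9.42%) differed 4-fold or more in opposite directions, against 447 of 10119 genes (4.42%).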

How the results depend on the processing

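The number of members higher in Sox11 cells, 16 as reported, was 10 with a pseudocount of 10 CPM (7.25%, against 8.93% of all genes) and 26 with CPM taken over member genes alone, which gives no share over all genes. It was 9 with each gene's top cell left out of each pool (6.52%, against 12.4%), of which 7 were among the 16. The number higher in Enpp2-rich cells, 21, was 13 without plate PL4 (9.42%, against 4.72%), all among the 21, and fewer cells were pooled there. edgeR's 0 called members became 24 with DESeq2, 12 in each direction. With each pool left out in turn edgeR called from 0 to 5 members. The class with 1 pool was then assumed to vary like the other, and over all genes 168 were called without the Sox11 pool of dataset A, 21 without that of dataset B and 0 without either Enpp2-rich pool. With the dataset as a replicate block it called 0 members, with 20 at an unadjusted p under 0.05. Where an alternative moved a count, the cause was not tested.

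Differences here are the smaller of the 2 datasets, on the log2 scale. Under the 13 alternatives that change a member's value, 178 of 182 values of the 14 members named for a class stayed past 4-fold and none reversed. The other 4 were Slc39a7 at -0.58 with the pseudocount of 10 CPM and at -1.32 without its top cells, Slc25a5 at 1.44 over member genes alone and Slc6a20a at 0.00 without plate PL4. Without plate PL4 Slc2a12 went from 8.16 to 3.96, Slc5a3 from 4.88 to 2.57 and Slc31a1 from 3.31 to 2.57, and without top cells Slc39a10 from -6.46 to -2.94. Without the 4 cells led by another list, an alternative chosen after seeing the data, 22 and 20 members were higher and edgeR called 0. The number of cells limits these values: 37 members reached 10 counts in 3 cells or fewer.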

Other observations

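Some members held 10 counts in 5 or more cells of a class in one dataset and in no cell of that class in the other. In Enpp2-rich cells, Slc4a2 (8 cells with 10 counts), Slc4a5 (7), Slc7a4 (5) and Slc29a4 (5), a transporter of monoamines and nucleosides, were seen in dataset A and had no count in dataset B. These were 4 of the 25 members with 10 counts in 5 or more Enpp2-rich cells of dataset A, against 46 of 957 genes (4.81%). In the other direction, 0 of 12 members with 10 counts in 5 or more Enpp2-rich cells of dataset B lacked such a cell in dataset A, against 94 of 1409 genes (6.67%). In Sox11 cells, Slc25a27, a mitochondrial carrier of the uncoupling protein group, held 10 counts in 10 of 25 cells of dataset B and in none of dataset A. Slc25a46 did so in 7 cells, and Slc25a12, Slc37a3 and Slc44a5 in 6 cells each. With Slc18b1 in 5 cells, these were 6 of 20 members, against 217 of 2429 genes (8.93%). From dataset A to B it was 0 of 6 members, against 29 of 1370 genes (2.12%).

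Across the 82 cells, the genes whose levels were most like those of Slc4a10 were Gpx8 (Spearman 0.70), Folr1 (0.69), the folate receptor of choroid plexus, and Kl (0.68). Those most like Slc39a6, seen in 9 cells, were Ess2 (0.58), Cdc73 (0.58) and 1110046J04Rik (0.56), each in 7 cells or fewer. The cells share plates and classes and most values are 0, so these are descriptions of shared presence.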
